A study of Rattus norvegicus with 9 samples.

Results

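The 10 genes described here code for the TIR adaptors that bind activated Toll-like receptors and for the kinases and ligases that these adaptors recruit. They are Ticam1, Ticam2, Myd88, Tirap, Irak1, Irak2, Irak3, Irak4, Traf3 and Traf6, matched by gene symbol among the 18006 genes with a value, and all 10 were found. Ticam1 was selected on its large fall in the PF samples of these same data. Such a choice favours a gene with a high DNP or Ctrl level and a low PF level, so all comparisons of Ticam1 are given as a description with no test. The other 9 genes were chosen because they belong to the same pathway, with earlier results of these data known.

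Toll-like receptors carry an intracellular TIR domain that binds TIR adaptor proteins. MyD88 serves most of these receptors and the interleukin-1 receptor family, and it assembles IRAK4 with IRAK1 or IRAK2, which then engage the ubiquitin ligase TRAF6 and lead to NF-kB and MAP kinases. TRIF, the product of Ticam1, is the adaptor of TLR3 and, bridged by TRAM (Ticam2), of TLR4, and it leads through TRAF3 to the kinases TBK1 and IKK-epsilon and the transcription factor IRF3. MCs carry Toll-like receptors beside the IgE receptor, and signals from both can change the cytokines that MCs release.

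RNA of the rat basophilic leukemia line RBL-2H3, which serves as a MC model, was sequenced in 3 groups of 3 samples. The DNP samples were sensitized with anti-DNP IgE at 50 ng/mL for 12 h and then received the antigen DNP-HSA at 100 ng/mL for 4 h. The PF samples had the same sensitization and antigen with 1 h of PF beforehand, and their labels give antigen times of 4, 5 and 6 h for PF samples 1, 2 and 3, although a protocol field shared by all samples says 4 h. The Ctrl samples are called untreated in one field, while the shared protocol describes sensitization and antigen, so whether they received IgE is not settled. The labels do not say what PF is, and a difference between PF and DNP samples cannot be told apart from one due to antigen time in PF samples 2 and 3. All samples come from 1 transformed line, and nothing in the labels says that the replicates were separate cultures, so p-values measure only the spread between these samples. Of 10 MC and basophil markers, 9 had values, all at 1 FPKM or more on average, and Tpsab1 had none. Their summed level ranged from 5343 to 5742 FPKM, against at most 2.07 FPKM for 5 macrophage markers, and the labels name the tissue as peripheral blood. A T cell list of 3 genes summed to between 6.92 and 10.2 FPKM.

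Values are FPKM, a unit that scales a gene's fragments to its length and to the library's mapped total and so allow levels of different genes to be set side by side. Sums over all genes ranged from 573023 to 591539 FPKM in the Ctrl and DNP samples and from 610206 to 630069 FPKM in the PF samples. Read numbers are unknown. A relative depth per sample, taken from 5 genes whose low values step evenly, ran from 0.982 to 1.01. Genes were kept for it only if their step size varied little between samples. The narrow range is therefore set by that choice and cannot show whether the libraries had equal depth. Fold changes and tests come from limma on log2(FPKM + 1), which understates the change of low genes, with p-values adjusted by the Benjamini-Hochberg method over all genes tested and a threshold of 0.05. A gene was tested if it reached 1 FPKM in at least 3 of the 6 samples compared. The comparisons share samples, since the DNP samples stand in both DNP vs Ctrl and PF vs DNP.

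Ticam1 (gene identifier 363328) was higher in DNP than in Ctrl and lowest in PF. Its level was 11.2, 11.6 and 12.8 FPKM in the 3 Ctrl samples, 19.1, 18.5 and 18.8 FPKM in the DNP samples and 2.42, 3.40 and 2.86 FPKM in the PF samples. The groups did not overlap, every DNP sample being above every Ctrl sample and every PF sample below both. The means were 11.9 ± 0.825 FPKM (SD, n = 3) in Ctrl, 18.8 ± 0.304 FPKM (SD, n = 3) in DNP and 2.89 ± 0.491 FPKM (SD, n = 3) in PF. DNP was 1.58-fold above Ctrl, a log2 fold change of 0.62 (standard error 0.0567) that ranked 142 from the highest among 10392 genes and that the choice of the gene favours. In PF the mean was 15.4% of that in DNP, 6.49-fold lower, and the log2 fold change was -2.35 (standard error 0.0890). This fall, on which the gene was selected, ranked 3 from the lowest among 10329 genes. Against Ctrl, the PF mean was 24.4%, or 4.10-fold lower, and the log2 fold change of -1.73 (standard error 0.0993) ranked 30 from the lowest of 10361. These are bulk samples, in which fewer cells expressing a gene and less of its RNA per cell cannot be told apart.

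**Figure D1:**
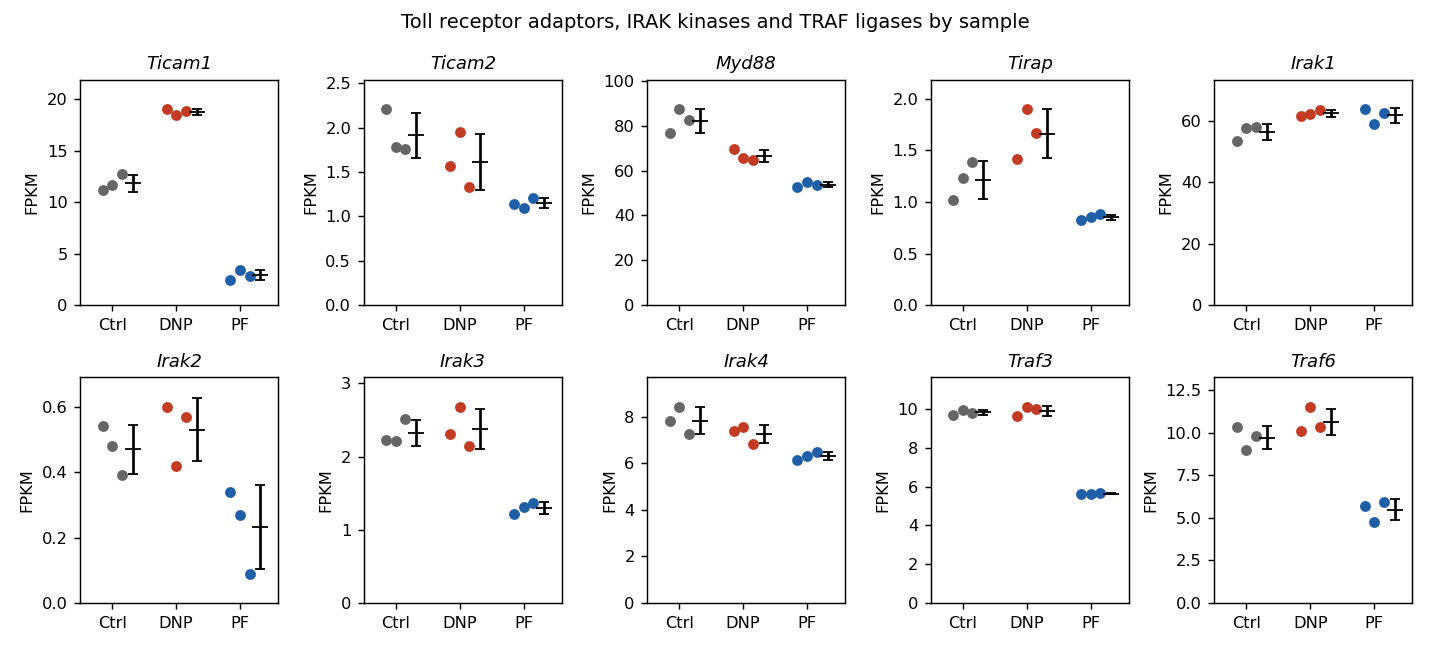
FPKM of each of the 10 genes (vertical axes, each starting at 0) in the 3 Ctrl, 3 DNP and 3 PF samples, with points for samples and bars for the mean and SD. Ticam1 lies between 18.5 and 19.1 FPKM in DNP and between 2.42 and 3.40 FPKM in PF, while the ranges of Irak1 in DNP and PF overlap.

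Myd88 (301059), the adaptor shared by most Toll-like receptors, was lower in DNP than in Ctrl and lower again in PF. It was at 76.6, 87.4 and 82.3 FPKM in Ctrl, 69.5, 65.6 and 64.5 FPKM in DNP and 52.6, 54.8 and 53.7 FPKM in PF. No sample of one group reached the range of another. The means were 82.1 ± 5.40 FPKM (SD, n = 3), 66.5 ± 2.61 FPKM (SD, n = 3) and 53.7 ± 1.12 FPKM (SD, n = 3). In limma the log2 fold change was -0.30 (standard error 0.0525, adjusted p = 0.00447) for DNP vs Ctrl, -0.30 (standard error 0.0389, adjusted p = 0.000275) for PF vs DNP and -0.60 (standard error 0.0514, adjusted p = 2.61e-05) for PF vs Ctrl. In the RefSeq annotation of GRCr8, a later build than the rn6 used for these files, Myd88 overlaps Acaa1a, a peroxisomal thiolase gene. Acaa1a went the other way, with means of 15.4, 17.4 and 20.5 FPKM in Ctrl, DNP and PF, and the strand setting of the counting is not given in the sources used here.

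Ticam2 (364867), which codes for the bridging adaptor between TLR4 and TRIF, was a low gene. It was at 2.21, 1.78 and 1.76 FPKM in Ctrl, 1.57, 1.95 and 1.33 FPKM in DNP and 1.14, 1.10 and 1.21 FPKM in PF. The Ctrl and DNP samples overlapped, and the PF samples lay below both. PF was lower than Ctrl by limma (log2 fold change -0.44, standard error 0.0942, adjusted p = 0.00411). The differences for PF vs DNP (-0.28, adjusted p = 0.0586) and DNP vs Ctrl (-0.16, adjusted p = 0.329) did not pass the threshold.

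Tirap (680127) codes for the adaptor that brings MyD88 to TLR2 and TLR4 at the plasma membrane. It was at 1.02, 1.23 and 1.39 FPKM in Ctrl, 1.42, 1.90 and 1.67 FPKM in DNP and 0.83, 0.85 and 0.88 FPKM in PF. The groups did not overlap, although the highest Ctrl and lowest DNP samples nearly met. The limma log2 fold change was 0.27 for DNP vs Ctrl (adjusted p = 0.0997). No PF sample reached 1 FPKM, so Tirap entered the PF comparisons solely through the group in which it was higher, and its log2 fold changes of -0.52 against DNP and -0.25 against Ctrl are a description. In the GRCr8 annotation Tirap overlaps Foxred1, which had no value in these files.

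The proportions among the TIR adaptors shifted with these changes. Summed over Ticam1, Ticam2, Myd88 and Tirap, the level was 97.1 ± 5.62 FPKM (SD, n = 3) in Ctrl, 88.6 ± 2.65 FPKM (SD, n = 3) in DNP and 58.6 ± 1.60 FPKM (SD, n = 3) in PF. Ticam1 made up 12.2% ± 0.789 (SD, n = 3) of that sum in Ctrl, 21.2% ± 0.535 (SD, n = 3) in DNP and 4.93% ± 0.703 (SD, n = 3) in PF. The ratio of Myd88 to Ticam1 was 6.94 ± 0.530 (SD, n = 3), 3.54 ± 0.112 (SD, n = 3) and 18.9 ± 2.80 (SD, n = 3) in the same order. These proportions rest on Ticam1 and are given as a description.

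Among the IRAK kinases, Irak1 was the abundant one, and Irak3 and Irak4 were lower in PF than in the other groups. Irak1 (363520), a kinase that MyD88 complexes activate, was at 53.3, 57.7 and 58.0 FPKM in Ctrl, 61.6, 62.1 and 63.7 FPKM in DNP and 63.8, 59.1 and 62.4 FPKM in PF. The DNP and PF samples overlapped, and both lay above the Ctrl samples. It was higher than Ctrl by limma in DNP (log2 fold change 0.15, standard error 0.0415, adjusted p = 0.0297) and in PF (0.13, adjusted p = 0.0457). Both calls were near the threshold, and 4 of the 6 fits that left out 1 sample lost each of them, with limma adjusted p up to 0.0950 in DNP vs Ctrl and 0.147 in PF vs Ctrl. The PF vs Ctrl value dropped to 0.05 (limma adjusted p = 0.420) after scaling to the mean sum and lost its call with the replicate block (adjusted p = 0.0670). PF vs DNP differed by -0.02 on the log2 scale (95% confidence interval -0.10 to 0.07, limma adjusted p = 0.750), and the sign changed to 0.05 after scaling by median ratios.

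Irak4 (300177), the kinase that acts ahead of IRAK1, was at 7.83, 8.42 and 7.24 FPKM in Ctrl, 7.40, 7.55 and 6.82 FPKM in DNP and 6.15, 6.31 and 6.50 FPKM in PF. The PF samples were the lowest, and the Ctrl and DNP samples overlapped. PF was lower than Ctrl (log2 fold change -0.27, standard error 0.0689, limma adjusted p = 0.00950). The PF vs DNP difference of -0.17 passed narrowly (limma adjusted p = 0.0480) and was lost in 5 of the 6 fits that left out 1 sample, with adjusted p up to 0.144. Irak4 overlaps Pus7l in the GRCr8 annotation, which was at means of 4.57, 4.17 and 3.78 FPKM in Ctrl, DNP and PF.

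Irak3 (314870) codes for IRAK-M, an IRAK protein that restrains Toll signalling. Its level was 2.23, 2.21 and 2.52 FPKM in Ctrl, 2.31, 2.68 and 2.14 FPKM in DNP and 1.21, 1.31 and 1.37 FPKM in PF. Ctrl and DNP samples were mixed, and all PF samples were below them. PF was at 54.6% of DNP, with -0.55 in limma (standard error 0.0926, adjusted p = 0.00119), and the value against Ctrl was -0.53 (standard error 0.0848, adjusted p = 0.000831). DNP vs Ctrl gave 0.02 (adjusted p = 0.875).

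Irak2 (362418), a kinase related to Irak1, stayed under 1 FPKM in all 9 samples and was not tested. It was at 0.54, 0.48 and 0.39 FPKM in Ctrl, 0.60, 0.42 and 0.57 FPKM in DNP and 0.34, 0.27 and 0.09 FPKM in PF. The PF samples were below the others. With no filter on low values, limma gave a log2 fold change of -0.31 for PF vs DNP (adjusted p = 0.0394), -0.26 for PF vs Ctrl (adjusted p = 0.0554) and 0.06 for DNP vs Ctrl (adjusted p = 0.638).

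The TRAF ligases of both branches were lower in PF than in either other group and did not pass in DNP vs Ctrl. Traf3 (362788), through which TRIF reaches TBK1, was at 9.71, 9.99 and 9.83 FPKM in Ctrl, 9.64, 10.1 and 10.0 FPKM in DNP and 5.63, 5.64 and 5.67 FPKM in PF. The PF samples were nearly equal and lay below the other groups, which overlapped. The PF mean was 56.8% of that in DNP, and the limma log2 fold change was -0.72 (standard error 0.0555, adjusted p = 1.38e-05). Against Ctrl it was -0.71 (standard error 0.0552, adjusted p = 1.69e-05), and DNP vs Ctrl gave 0.01 (adjusted p = 0.882). The two-sided exact permutation test gave p = 0.1 in both PF comparisons, the smallest that 3 samples against 3 allow.

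Traf6 (311245), the ligase of the MyD88 branch, was at 10.3, 9.0 and 9.78 FPKM in Ctrl, 10.1, 11.5 and 10.3 FPKM in DNP and 5.70, 4.76 and 5.94 FPKM in PF. Again the Ctrl and DNP samples overlapped and the PF samples stood below. PF was at 51.4% of DNP, with -0.85 on the log2 scale in limma (standard error 0.0854, adjusted p = 6.47e-05), and at 56.4% of Ctrl, with -0.73 (standard error 0.0867, adjusted p = 0.000155). The DNP vs Ctrl value was 0.12 (adjusted p = 0.234).

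**Figure D2:**
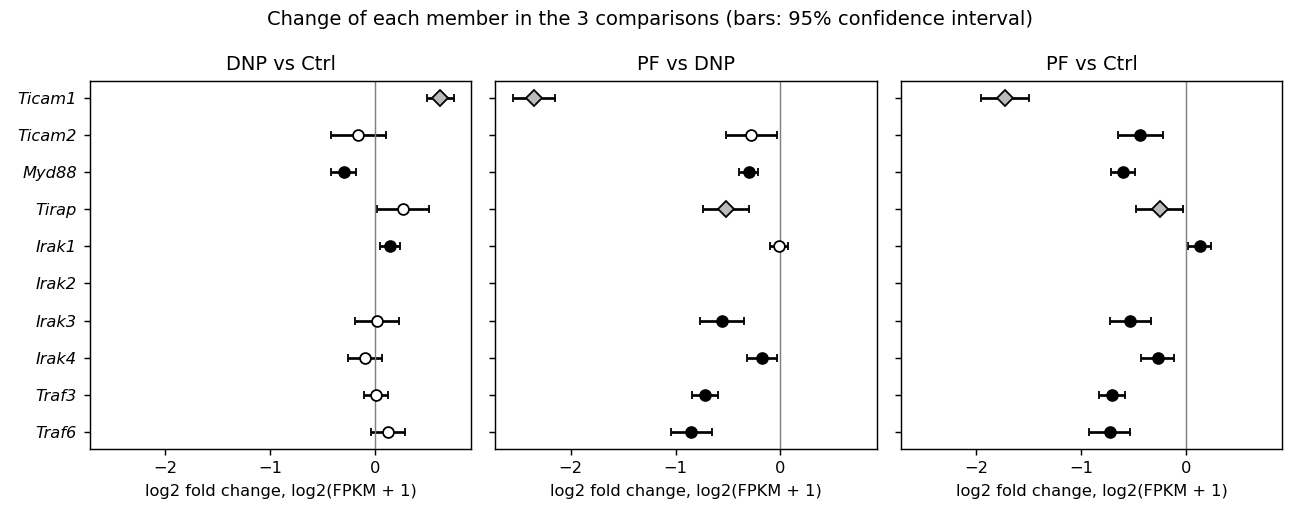
Change of the 10 genes on the log2(FPKM + 1) scale (horizontal axis, log2 fold change) with its 95% confidence interval in the 3 comparisons. Filled circles passed an adjusted p of 0.05, open circles did not, and grey diamonds mark values given with no test, Ticam1 in all comparisons and Tirap in those with PF. Traf3 and Traf6 sit at -0.72 and -0.85 in PF vs DNP, and at 0.01 and 0.12 in DNP vs Ctrl. Irak2 was not tested.

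Counted over the group, few of these genes passed the test between DNP and Ctrl. In DNP vs Ctrl, 9 of the 10 reached the level needed for a test. Of the 8 other than Ticam1, limma called Irak1 higher and Myd88 lower, and 6 did not pass. Across all 10392 genes tested 29.2% were called, 14.7% higher and 14.4% lower, so 2 of 8 is near the background. The median log2 fold change was 0.02 over the 8 genes and -0.01 over all genes.

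More of them were lower in PF. In PF vs DNP, 7 genes are counted, which leaves out Ticam1, Irak2, which was under the filter, and Tirap, which passed it only through its higher DNP level. Of the 7, limma called Myd88, Irak3, Irak4, Traf3 and Traf6 lower, and Ticam2 and Irak1 did not pass. Over all 10329 genes 48.8% were called, 18.1% higher and 30.7% lower. The median of the 7 genes was -0.30, against -0.04 over all genes. In PF vs Ctrl, limma called Ticam2, Myd88, Irak3, Irak4, Traf3 and Traf6 lower and Irak1 higher of the same 7 genes. The background there was 57.7% of 10361 genes, with 23.1% higher and 34.6% lower, and the medians were -0.53 for these genes and -0.05 for all. The split of calls over all genes moved with the scaling. In PF vs DNP 37.1% of the called genes were higher with the values as deposited, 51.5% after scaling by median ratios and 16.8% after scaling to the mean sum, and in PF vs Ctrl these shares were 40.0%, 51.1% and 26.7%. Myd88, Irak3, Traf3 and Traf6 were called lower in both PF comparisons under both of these scalings.

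The order of levels in FPKM changed as well. In Ctrl it ran Myd88, Irak1, Ticam1, Traf3, Traf6, Irak4, Irak3, Ticam2, Tirap and Irak2, and the ranges of Traf3 and Traf6 and of Irak3 and Ticam2 overlapped. In DNP Traf6 stood ahead of Traf3 and Tirap ahead of Ticam2, and both of these pairs overlapped. In PF Irak1 came first and Myd88 next, and Ticam1 had moved from rank 3 to rank 6, below Irak4, Traf3 and Traf6. The PF ranges of Traf3 and Traf6 and of Irak3 and Ticam2 overlapped.

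**Figure D3:**
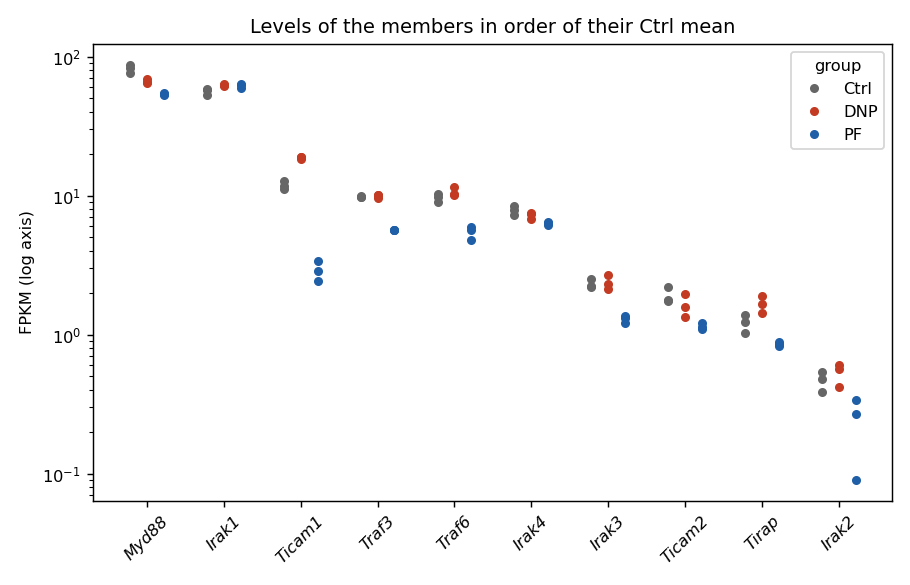
FPKM of the 10 genes (log axis), ordered from left to right by their Ctrl mean, with a point for each Ctrl, DNP and PF sample. The PF points of Ticam1, between 2.42 and 3.40 FPKM, lie below those of Traf3, Traf6 and Irak4, while its Ctrl and DNP points lie above the Ctrl and DNP points of these genes, and Irak1 passes Myd88 in PF.

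The genes around these adaptors were examined in 9 lists of 97 symbols, of which 90 had values and 59 were tested in each comparison. In DNP vs Ctrl limma called 6 of the 59 higher and 13 lower, which is 32.2% called against 29.2% of all genes. The PF comparisons are counted over 58 genes, without Tlr13, which passed the filter only through its higher group. In PF vs DNP 7 were higher (12.1%, against 18.1% of all genes) and 29 lower (50.0%, against 30.7%), and in PF vs Ctrl 10 were higher (17.2%, against 23.1%) and 35 lower (60.3%, against 34.6%). The medians were 0.01, -0.20 and -0.24 in that order, against -0.01, -0.04 and -0.05 over all genes.

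Most Toll-like receptors themselves were at or near 0 in these cells. Of 13 receptor genes, Tlr2, Tlr8 and Tlr11 had no value, and 7 did not exceed 0.09 FPKM in any sample. Tlr3, named for its role as the receptor that signals through TRIF alone, was between 0 and 0.05 FPKM. Tlr4, the receptor for lipopolysaccharide, was at 2.50, 2.48 and 2.56 FPKM in Ctrl, 2.09, 2.16 and 2.11 FPKM in DNP and 1.34, 1.48 and 1.36 FPKM in PF. The groups did not overlap, and Tlr4 was lower in PF than in DNP by limma (log2 fold change -0.38, standard error 0.0809, adjusted p = 0.00417) and lower than in Ctrl (-0.55, adjusted p = 0.000412), while DNP vs Ctrl gave -0.17 (adjusted p = 0.117). Ly96, the TLR4 partner MD-2, averaged 21.7, 18.8 and 19.4 FPKM in Ctrl, DNP and PF. Tlr3 and Ly96 were named after their values were seen.

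Tlr13, a receptor for bacterial ribosomal RNA, had a profile close to that of Ticam1. Its values were 2.47, 2.51 and 2.79 FPKM in Ctrl, 5.15, 5.00 and 4.69 FPKM in DNP and 0.40, 0.59 and 0.57 FPKM in PF. The DNP samples were the highest and the PF samples the lowest, with no overlap. Tlr13 was higher in DNP than in Ctrl (log2 fold change 0.73, standard error 0.0746, limma adjusted p = 0.000413). No PF sample reached 1 FPKM, so it was tested against PF through the higher group alone, and the log2 fold changes of -1.97 against DNP and -1.24 against Ctrl are a description. Tlr6, which pairs with TLR2, was at 4.08, 4.12 and 4.06 FPKM in Ctrl, 4.73, 4.46 and 5.09 FPKM in DNP and 4.02, 4.21 and 4.60 FPKM in PF. It passed in none of the 3 limma comparisons, with unadjusted 95% confidence intervals of 0.02 to 0.34 for DNP vs Ctrl, -0.30 to 0.05 for PF vs DNP and -0.11 to 0.21 for PF vs Ctrl.

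The TRIF branch list holds the kinases, death domain proteins and interferon regulatory factors downstream of Ticam1. Of its 11 tested genes, 3 were higher and 8 did not pass in DNP vs Ctrl. In PF vs DNP 7 were lower and 4 did not pass (median -0.46), and in PF vs Ctrl 3 were higher and 7 lower. The lower share was 63.6% in both, against 30.7% and 34.6% of all genes. The called share in DNP vs Ctrl was 27.3%, against 29.2%. All of these calls were higher, where the share of all genes was 14.7%. The higher share in PF vs Ctrl was 27.3%, against 23.1%. Ripk1, the kinase that TRIF binds directly, averaged 9.32 ± 0.285 FPKM in Ctrl, 8.53 ± 0.458 FPKM in DNP and 5.01 ± 0.381 FPKM in PF (SD, n = 3). Its limma log2 fold change in PF vs DNP was -0.67 (adjusted p = 9.63e-05). Casp8, a protease of the same death domain complex, changed by -0.67 (adjusted p = 8.36e-05), its adaptor Fadd by -0.61 (adjusted p = 0.0320) and the ubiquitin ligase Peli1 by -0.51 (adjusted p = 9.41e-05). Fadd was low and scattered (standard error 0.201), at 2.27, 4.16 and 2.46 FPKM in DNP and 1.84, 1.92 and 0.97 FPKM in PF. In PF vs Ctrl the limma log2 fold change of Tank was -0.61 (adjusted p = 4.5e-05).

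At the end of that branch Ikbke was higher in DNP and PF than in Ctrl, Tbk1 was lower in PF and Irf3 was higher in DNP than in Ctrl. Ikbke, which codes for IKK-epsilon, was at 3.20, 3.66 and 3.63 FPKM in Ctrl, 5.72, 6.19 and 5.98 FPKM in DNP and 7.71, 6.37 and 7.02 FPKM in PF. It lay highest in PF, with no overlap between groups. Limma gave 0.63 for DNP vs Ctrl (adjusted p = 0.000663) and 0.84 for PF vs Ctrl (adjusted p = 6.35e-05), and PF vs DNP at 0.20 did not pass (adjusted p = 0.0518). Tbk1 and Irf3 are given for their place next to TRAF3, a choice made after their values were seen. Tbk1 averaged 40.6, 42.8 and 34.4 FPKM in Ctrl, DNP and PF and was lower in PF than in DNP (log2 fold change -0.31, limma adjusted p = 0.000659). Irf3 averaged 30.2, 36.7 and 35.3 FPKM, higher in DNP than in Ctrl (0.28, limma adjusted p = 0.00390), while PF vs DNP gave -0.05 (adjusted p = 0.317).

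Of 6 tested other TRAF family and TRAF-binding genes, 5 were lower in PF vs DNP (median -0.77), where 30.7% of all genes were, and 6 in PF vs Ctrl (median -0.82), where 34.6% of all genes were. In DNP vs Ctrl 1 was higher and 3 were lower. That is 66.7% called, against 29.2% of all genes, and 50.0% lower, against 14.4%. Traf1, a TRAF without ligase activity, was at 8.84, 8.14 and 8.86 FPKM in DNP and 2.64, 3.86 and 3.60 FPKM in PF, and limma gave -1.15 (standard error 0.107, adjusted p = 4.3e-05). Traf2, a ligase of TNF receptor signalling, was at 12.8, 13.4 and 12.3 FPKM in DNP and 6.38, 5.54 and 5.34 FPKM in PF, a change of -1.04 (standard error 0.0718, adjusted p = 7.25e-06). In both genes all PF samples were below all DNP samples. Traf5 changed by -0.87 (limma adjusted p = 4.59e-06) and Traf3ip2, the adaptor of the interleukin-17 receptor, by -0.68 (limma adjusted p = 0.000192).

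Of the 13 tested MyD88 branch genes, which act between TRAF6 and NF-kB, 1 was higher and 3 were lower in DNP vs Ctrl, 2 were higher and 4 lower in PF vs DNP, and 2 were higher and 7 lower in PF vs Ctrl. The called share in DNP vs Ctrl was 30.8%, against 29.2% of all genes. By direction it was 7.69% higher, against 14.7%, and 23.1% lower, against 14.4%. The lower share in PF vs DNP (30.8%, against 30.7%) was at the background, and that in PF vs Ctrl was 53.8%, against 34.6%. Nfkb1, an NF-kB subunit, was at 45.5, 44.5 and 43.5 FPKM in Ctrl, 49.6, 49.9 and 51.2 FPKM in DNP and 19.1, 20.4 and 21.2 FPKM in PF. Its groups did not overlap, and the limma log2 fold change in PF vs DNP was -1.27 (standard error 0.0458, adjusted p = 3.16e-07). Tab1, a partner of the kinase TAK1, changed by -0.51 (limma adjusted p = 0.000185).

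The interleukin-1 receptor family, which also signals through MyD88, had 5 tested genes, and none was called in DNP vs Ctrl. In PF vs DNP 3 were lower, and in PF vs Ctrl 3 (60.0% in each, against 30.7% and 34.6% of all genes). Both subunits of the interleukin-18 receptor were among the lower genes. Il18rap averaged 17.1 ± 0.423 FPKM in DNP and 7.86 ± 0.640 FPKM in PF (SD, n = 3), a limma log2 fold change of -1.03 (adjusted p = 3.62e-06), and Il18r1 averaged 33.5 ± 1.02 and 22.1 ± 0.380 FPKM (SD, n = 3), a change of -0.58 (adjusted p = 7.86e-06). Il1rl1, the most abundant gene of the list, averaged 137, 133 and 139 FPKM in Ctrl, DNP and PF. It passed in none of the comparisons (PF vs DNP 0.06, limma adjusted p = 0.167).

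Among 8 tested inhibitors of Toll signalling, 4 were lower in DNP vs Ctrl, 2 were higher and 4 lower in PF vs DNP, and 2 were higher and 5 lower in PF vs Ctrl. The lower shares were 50.0%, 50.0% and 62.5%, against 14.4%, 30.7% and 34.6% of all genes. Tnfaip3, which codes for the deubiquitinating enzyme A20, was at 110.1, 107.2 and 104.5 FPKM in DNP and 161.8, 154.5 and 156.9 FPKM in PF. All PF samples were above all DNP samples, and limma gave 0.55 (standard error 0.0337, adjusted p = 3.62e-06). Cyld went the other way, with means of 20.9, 17.4 and 12.5 FPKM in Ctrl, DNP and PF. Its limma log2 fold change was -0.44 in PF vs DNP (adjusted p = 0.00018) and -0.69 in PF vs Ctrl (adjusted p = 4.9e-05). Of 7 tested genes in other innate adaptor pathways, 1 was higher and 4 were lower in PF vs DNP (57.1%, against 30.7%), among them Ripk2, the kinase of the NOD receptors (log2 fold change -0.65, limma adjusted p = 9.23e-05). Of 4 tested receptor co-factors 2 were higher in PF vs DNP (50.0%, against 18.1%) and 2 did not pass. Of 10 interferon and TRIF-associated targets 2 were tested, and the rest had no value or were too low. One of the tested targets passed in none of the limma comparisons. The other, the chemokine Cxcl10, averaged 3.75 ± 0.0987 FPKM in Ctrl, 2.58 ± 0.513 FPKM in DNP and 1.11 ± 0.471 FPKM in PF (SD, n = 3). Its PF sample 3 lay under 1 FPKM, at 0.66 FPKM. Cxcl10 was lower in DNP than in Ctrl (-0.42, limma adjusted p = 0.0227) and lower in PF than in DNP (-0.78, limma adjusted p = 0.00512).

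**Figure D4:**
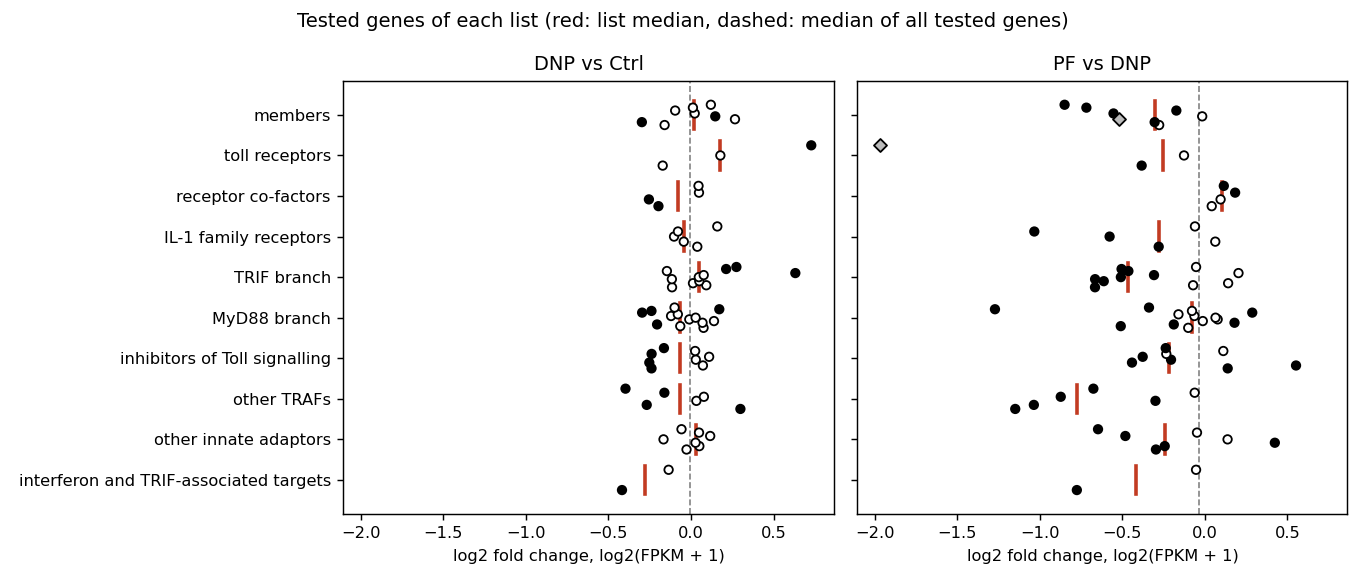
Log2 fold change (horizontal axis, log2(FPKM + 1) scale) of every tested gene of each list in DNP vs Ctrl and PF vs DNP, with the adaptor genes in the top row (members). Ticam1 is left out, and grey diamonds mark Tirap and Tlr13 in PF vs DNP, which have no test there and are not in the medians. Filled points passed an adjusted p of 0.05, red bars are list medians and dashed lines the median of all tested genes. The medians of the TRIF branch and the other TRAF genes sit at -0.46 and -0.77 in PF vs DNP, left of the dashed line at -0.04.

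The 5 genes whose profiles over the 9 samples were most like that of Ticam1 were searched among 252 genes with PF and DNP means at least 1 apart on the log2 scale. By Pearson's r of log2(FPKM + 1) over 9 samples they were Gpr37 (r = 0.997), RGD1305464 (r = 0.997), Ppp1r10 (r = 0.996), Frmd4b (r = 0.996) and Cln8 (r = 0.996). Gpr37, an orphan G protein-coupled receptor, averaged 17.5, 25.9 and 6.36 FPKM in Ctrl, DNP and PF. Ppp1r10, a nuclear regulatory subunit of protein phosphatase 1, averaged 14.3, 18.7 and 6.02 FPKM, and Cln8, an endoplasmic reticulum protein, 43.1, 54.1 and 16.7 FPKM. All 5 were highest in DNP and lowest in PF, as the search favours, and the points share their libraries and 3 groups, so r is a description. Tlr13 had r = 0.992 with Ticam1. Of the other adaptor pathway genes Traf3 (0.964), Traf6 (0.946) and Irak3 (0.945) were nearest to Ticam1, and Irak1 had -0.150.

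**Figure D5:**
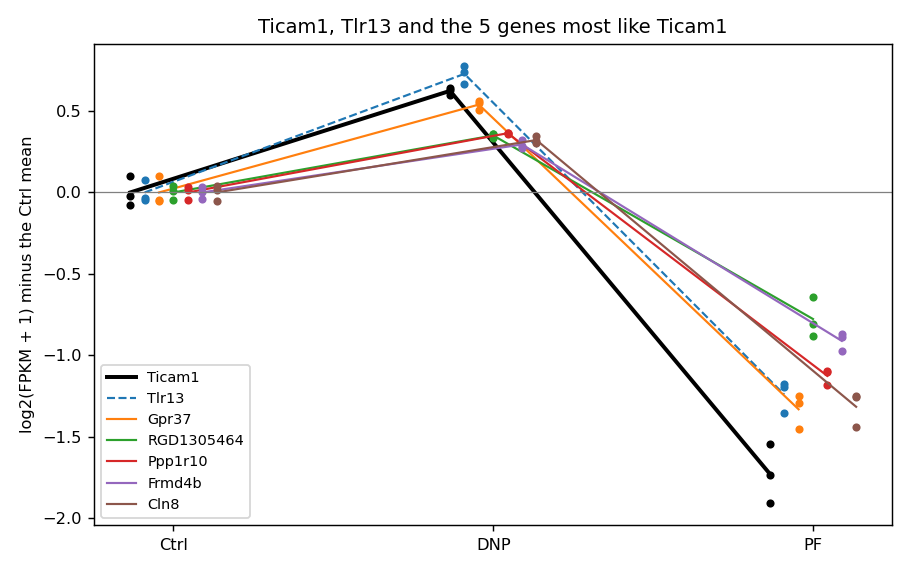
Log2(FPKM + 1) minus the Ctrl mean (vertical axis) for Ticam1, Tlr13 and the 5 genes most like Ticam1, with points for samples and lines through the group means of Ctrl, DNP and PF. All 7 profiles rise in DNP and are lowest in PF.

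The promoters of Traf3, Irak3 and Myd88, which were lower with PF and hold motif matches, are shown with that of Irak1, which did not pass in PF vs DNP. The bases ahead of their starts can so be read side by side. Irak4 was also called lower in PF, against both DNP and Ctrl, and Ticam2 against Ctrl, while Tirap was lower in PF with no test. The promoters of these genes hold no match and are not shown. The promoters shown were thus picked in part for their matches, and a link between matches and change was not tested. RefSeq sequences of GRCr8 were matched for 7 of the 10 genes, and Ticam1, Irak2 and Traf6 had no entry in the table. Each run gives the 250 bases before the start, 5′ to 3′ on the gene's strand, and capitals mark motif matches.
Traf3 (chr6:136026799-136027048, plus strand): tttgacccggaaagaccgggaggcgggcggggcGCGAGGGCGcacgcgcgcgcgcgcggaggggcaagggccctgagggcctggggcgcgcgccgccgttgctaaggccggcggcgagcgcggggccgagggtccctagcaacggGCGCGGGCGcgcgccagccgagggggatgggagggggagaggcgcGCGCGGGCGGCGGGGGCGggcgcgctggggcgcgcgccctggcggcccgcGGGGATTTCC
Irak3 (chr7:57598632-57598881, minus strand): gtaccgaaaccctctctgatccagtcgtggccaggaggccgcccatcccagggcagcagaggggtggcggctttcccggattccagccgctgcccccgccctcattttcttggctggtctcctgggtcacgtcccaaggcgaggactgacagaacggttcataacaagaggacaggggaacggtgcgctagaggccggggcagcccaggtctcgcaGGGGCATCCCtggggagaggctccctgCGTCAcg
Myd88 (chr8:127956231-127956480, minus strand): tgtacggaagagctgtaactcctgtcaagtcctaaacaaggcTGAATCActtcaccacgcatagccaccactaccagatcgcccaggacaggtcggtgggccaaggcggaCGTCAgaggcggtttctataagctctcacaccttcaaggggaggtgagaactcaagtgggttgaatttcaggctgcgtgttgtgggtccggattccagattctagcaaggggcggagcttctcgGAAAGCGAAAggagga
Irak1 (chrX:156929826-156930075, minus strand): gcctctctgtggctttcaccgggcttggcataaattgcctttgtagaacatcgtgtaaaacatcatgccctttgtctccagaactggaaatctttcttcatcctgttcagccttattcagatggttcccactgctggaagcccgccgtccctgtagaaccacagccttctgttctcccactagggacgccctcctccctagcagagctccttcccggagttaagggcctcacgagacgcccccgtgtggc

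The Traf3 promoter had a GC content of 83.2%, against 66.0% for Irak3, 54.4% for Myd88, 54.8% for Irak1 and a median of 51.2% over 33469 promoters. Motifs were searched on both strands. The capitals in Traf3 are 4 matches to the EGR1 motif GCGNGGGCG, which 4.29% of all promoters hold, and a match to the NF-kB consensus from -10 to -1, which 6.33% hold. In Irak3 they mark an NF-kB consensus match from -34 to -25 and, on the other strand, the CRE core TGACG, held by 18.2% of promoters. In Myd88 they mark the AP-1 motif TGANTCA from -208 to -202 (6.34% of promoters), the CRE core on the other strand and the interferon response element from -16 to -7 (3.41%). Irak1, Irak4, Tirap and Ticam2 had no match to these motifs, to the full CRE TGACGTCA (1.59%) or to the TATA box TATAAA (12.9%) in this window. A match is a run of letters and not evidence of binding.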

How the data were processed

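RNA-seq values of 9 RBL-2H3 samples (3 Ctrl, 3 DNP, 3 PF) were analysed. The authors filtered reads with SOAPnuke, mapped them with HISAT2 2.0.4, aligned them with Bowtie2 2.2.5 and quantified genes with RSEM 1.2.12. The submitters' processing notes name these versions and the build rn6. The methods name a BGISEQ-500 sequencer and the labels Illumina protocols. The deposited values carry no unit in their heading and were read as FPKM, normalized by the authors for gene length and depth. Of 38490 rows, 20484 had no value and 18006 genes were used. Samples were joined by gene identifier, since the files hold 5 row orders.

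Genes reaching 1 FPKM in 3 or more of 6 compared samples were tested with limma 3.58.1 in R 4.3.3 (lmFit, eBayes with trend) on log2(FPKM + 1), using Benjamini-Hochberg adjusted p-values (threshold 0.05), each comparison on its own 6 samples. The steps were tested on simulated data. Single genes had a two-sided exact permutation test, whose smallest p is 0.1, so it could not pass the threshold. FPKM holds no counts, so no counting error is given. The members and gene lists were chosen with earlier results of these data known. All 10 members are named. Of the pathway lists the text names Toll receptors reaching 1 FPKM in 3 samples and called genes whose log2 fold change was 0.5 or more in size, at most 4 per list and comparison. Tlr3, Ly96, Tbk1, Irf3 and Il1rl1 lie outside that rule and were named after their values were seen. Acaa1a, Foxred1 and Pus7l are named as genes that overlap members. Ticam1, and genes that passed the filter only through the higher group (Tirap and Tlr13 in the PF comparisons), stand in the fit but are given no test. The counts of called genes in the Results leave them out, while the counts of the alternative runs include them as stated there. Genes like Ticam1 are the 5 with the highest Pearson r.

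Alternatives were a pseudocount of 0.1, no filter, all 3 groups in the fit, 2 scalings, eBayes without trend, the replicate number as a block, leaving out each sample, and PF replicate 1 as the only PF sample, whose spread is then taken from the other group.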

Additional observations from a re-analysis of the deposited data

How the results depend on the processing

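Myd88 in all 3 comparisons, and Irak3, Traf3 and Traf6 in both PF comparisons kept their direction and limma call in every alternative run. The Ticam1 value ranged from 0.58 to 0.67 in DNP vs Ctrl and, in PF, from -2.67 to -2.26 against DNP and from -2.01 to -1.64 against Ctrl. Of 123 counts recomputed, 121 stayed within 1.5 times the count from the main test. The exceptions were the pathway genes called in DNP vs Ctrl, 19 with all samples and 12 without DNP replicate 3, and in PF vs Ctrl, 46 with all samples and 29 with PF replicate 1 alone, which has fewer samples. Leaving out 1 sample gave 12 to 16, 31 to 36 and 36 to 43 pathway genes and 2 to 3, 4 to 6 and 6 to 7 members called in DNP vs Ctrl, PF vs DNP and PF vs Ctrl. Unlike those in the Results, the counts in this section include Ticam1 in DNP vs Ctrl and Tirap and Tlr13 in the PF comparisons. They describe the effect of the processing only. Counts without these genes were not recomputed in the alternatives. Values near 0 that changed sign were Irak3 in DNP vs Ctrl (-0.0011 without Ctrl replicate 2, -0.041 without DNP replicate 2), Traf3 in DNP vs Ctrl (-0.0013 without DNP replicate 2) and Irak1 in PF vs DNP (0.047 with median ratios, 0.015 without PF replicate 2, 0.031 with PF replicate 1 alone). Leaving out 1 sample, Irak3 ranged from -0.041 to 0.073, Traf3 from -0.0013 to 0.031 and Irak1 from -0.040 to 0.015. None of these passed the threshold, and the cause was not tested. Irak1 kept its call in 7 of 13 alternatives in DNP vs Ctrl and in 5 of 14 in PF vs Ctrl, and Irak4 kept its PF vs DNP call in 5 of 14. Ticam2 passed in PF vs DNP in 4 of 14. Scaling to the mean sum put the median of all genes at -0.13 in PF vs DNP.

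Replicate numbers did not pair the samples in DNP vs Ctrl or PF vs DNP, and the main test did not block on them in any comparison. Correlations of deviations between samples of the same number ranged from -0.0739 to 0.0514 in DNP vs Ctrl, from -0.0822 to 0.00049 in PF vs DNP and from 0.083 to 0.189 in PF vs Ctrl, where each sample correlated best with its own number. With the replicate block, 2697, 4675 and 6009 genes and 3, 5 and 6 members were called in the 3 comparisons. Read depth is unknown, so whether values under 1 FPKM, such as those of Irak2, rest on few reads cannot be told.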
